A study of Mus musculus with 27 samples.

Results

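Cultured mouse cells labelled as aortic endothelial cells (MAECs) were compared after 1 h with imidazole propionate (ImP, 10 µg/mL) and unstimulated (0 h). The 6 libraries were chosen by their labels alone, 3 at 1 h and 3 at 0 h, out of 27 in the series. The other libraries were MAECs after 2 h with ImP (3), mouse embryonic fibroblasts (MEFs, 9) and bone marrow derived macrophages (BMDMs, 9), each with 3 libraries at 0, 1 and 2 h and plated at 600000 cells in 2000 µL. ImP is a product of histidine breakdown by gut bacteria. The series asks which transcripts ImP raises in each cell type, under the heading of atherosclerosis. For MAECs, 100000 cells a well in 1000 µL were rested overnight before ImP. The label field for cell line reads MAECs, with no strain, animal, passage or clone given, and 1 h controls without ImP are not among the samples. The effect of ImP and that of the added hour in the well therefore cannot be told apart. Nothing in the labels says that libraries of a group came from separate cultures, so each p-value reflects no more than the scatter among these libraries, and that scatter may be technical.

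Endothelial cells line blood vessels. They are defined by junction proteins such as VE-cadherin (Cdh5) and Pecam1, by VEGF receptors and by von Willebrand factor (Vwf). When inflamed, they switch on NF-kB, which raises adhesion molecules such as Vcam1 and Icam1 and lets leukocytes into the wall, an early step of atherosclerosis. Stimuli that act on gene expression within an hour do so first on immediate early genes, whose transcription needs no new protein, and on quick feedback inhibitors of each pathway. In liver cells ImP has been tied to the p38 kinase Mapk12, the adaptor Sqstm1 and mTOR signalling, and the imidazoline binding protein nischarin (Nisch) is a proposed binding partner.

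The transcripts in these libraries went against the endothelial label. Over the 9 MAECs libraries, 2 of the 21 endothelial markers in the table averaged 10 CPM or more (counts scaled to a common library size by the TMM method), and 11 averaged under 1 CPM. These 2 were the TGF-beta co-receptor Eng (105 CPM) and the phosphatase gene Ptprb (17.1 CPM). Cldn5, Robo4 and Sox18, an endothelial tight junction protein, guidance receptor and transcription factor, had no count in any of the 9. Cdh5 had 0.0805, 0.0527 and 0 CPM at 1 h, against 0.211, 2.63 and 0 CPM at 0 h. Kdr, the main VEGF receptor, had 0.209, 0.158 and 0 CPM at 1 h, against 0, 0 and 0.877 CPM at 0 h. Markers of mesenchymal cells were abundant in all 6 libraries: 13 of 15 fibroblast markers reached 10 CPM, among them the surface protein Thy1 and the PDGF receptor Pdgfra, and 8 of 17 smooth muscle and pericyte markers did, among them the contractile actin Acta2. Divided by exon length, so that genes can be set side by side, the median level was 0.139 CPM per kb over the endothelial markers and 55.9 CPM per kb over the fibroblast markers. Of 18 macrophage and leukocyte markers 3 reached 10 CPM, 1 of 13 epithelial and mesothelial ones (Krt19, an intermediate filament), and 3 of 8 adipocyte ones. The summed level of the endothelial markers was 150 to 184 CPM at 1 h and 126 to 177 CPM at 0 h, and that of the fibroblast markers 7084 to 7540 CPM at 1 h and 6807 to 7461 CPM at 0 h. The cells are therefore called by their label below, with no identity attached. In bulk samples fewer cells of a type and less RNA per cell cannot be told apart.

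**Figure D1:**
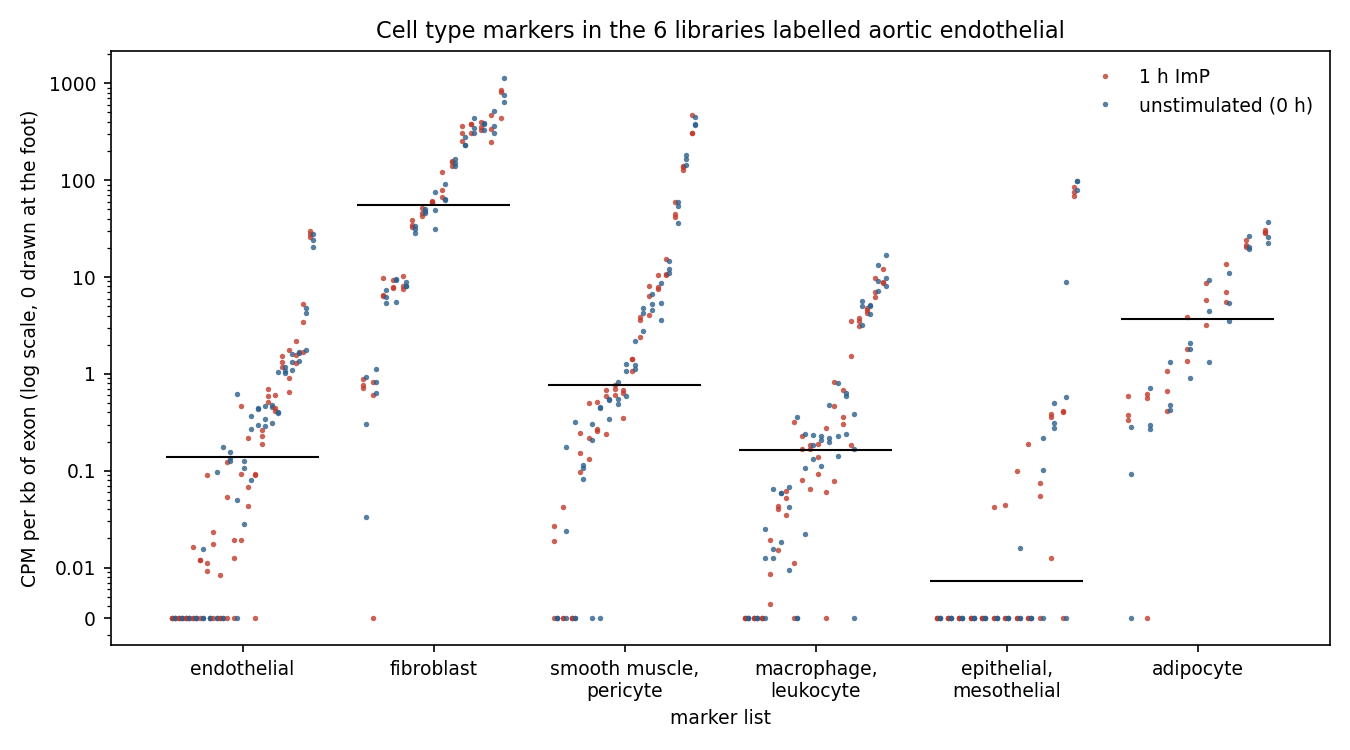
Levels of cell type markers in CPM per kb of annotated exon (log axis, with 0 drawn at the foot) in the 3 libraries at 1 h with ImP (red) and the 3 at 0 h (blue). Each column of points is 1 gene, ordered by level within its list, and black lines are list medians of the mean of the 6 libraries, 0.139 for endothelial and 55.9 for fibroblast markers.

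The libraries held 18955352 to 61029374 counts at 1 h and 21023626 to 52161186 counts at 0 h. The third 0 h library stood apart: its mean correlation with the other 8 was the lowest (0.93), 1.52% of its counts were mitochondrial, and its 50 most abundant genes took 19.3% of them, against at most 1.26% and 17.8% in the other 8. Its deviations from the mean ran against gene length (Spearman's rho across genes of -0.24), while those of the first 1 h library ran with it (0.32). The third 1 h library had the next lowest correlation (0.935) and the most tested genes without a count (665). Values without the third 0 h library are given for some genes and lists only, and others moved as well. Without that library the log2 fold change of 1 h over 0 h went from 2.70 to 3.89 for Car3. It went from -0.20 to -0.43 for Smad6 and from 0.17 to -0.05 for Smad7.

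After 1 h with ImP no gene was called against 0 h. In edgeR's quasi-likelihood test, with Benjamini-Hochberg adjustment over 14779 genes, 0 (0%) passed an adjusted p of 0.05, and the smallest adjusted p was 0.826. At an unadjusted p under 0.05 there were 472 genes (3.19%) with higher and 261 (1.77%) with lower values at 1 h, 733 (4.96%) in all. Limma-voom called 0, with 860 genes at an unadjusted p under 0.05. DESeq2 called 3 of 22258 (0.0135%). The 3 libraries at 1 h lay wholly above the 3 at 0 h for 792 genes (5.36%) and wholly below for 722 (4.89%). For 50.6% of genes the log2 fold change was above 0. The biological coefficient of variation was 0.326. The 95% interval of a gene's log2 fold change had a median half-width of 0.274 at a mean of 100 CPM or more, 0.413 at 10 to 100 CPM, 0.953 at 1 to 10 CPM and 2.84 under 1 CPM. These widths are per gene and unadjusted, so a change wider than them need not pass the adjustment over all genes.

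Of the 3 genes that DESeq2 called, 1 was measured well in both groups. Zdhhc21, which encodes an enzyme that attaches palmitate to proteins, had 35.3, 42.3 and 35.3 CPM at 1 h, against 23.8, 22.7 and 17.3 CPM at 0 h. Every 1 h library lay above every 0 h library. DESeq2 gave a log2 fold change of 0.81 (adjusted p = 0.0296), and edgeR gave 0.82 (SE 0.17, adjusted p = 0.826). Over 17 alternatives the log2 fold change of Zdhhc21 ran between 0.69 and 0.91, and its adjusted p between 0.0296 and 1.0. The gene lies on chr4:82798738-82859958 (GRCm38), on the minus strand. The other genes called by DESeq2 rested on a group without counts, and were chosen for mention after their values were seen. Tcte3, a dynein light chain gene known from testis and present in near-identical copies, had 0, 0 and 0 counts at 1 h, against 39, 33 and 32 counts at 0 h, at least 37.2-fold lower when the 1 h group is set at a floor of 3 counts. The serpin gene Serpina3c had 28, 16 and 30 counts at 1 h, against 0, 0 and 0 counts at 0 h, at least 23-fold higher with the same floor. Serpina3c belongs to a cluster of near-identical serpin genes, among which the counting could split reads.

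Since none passed, genes are named in order of unadjusted p as not passing, 10 higher and 10 lower, provided that they averaged 1 CPM or more and their groups did not overlap. Each had an adjusted p of 0.826 in edgeR. Of these 20, 6 overlap a gene on the opposite strand (Ror1, Errfi1, Il18, Cep290, Cebpg and Cenpp), and the low-input kit does not mark strand, so reads of such pairs cannot be told apart. Cenpp, a kinetochore gene, spans several matrix genes, Ogn and Aspn among them. Further genes given here that overlap an annotated gene on the other strand are Eng, Cdh5, Pdgfra, Tcte3, Junb, Mtor, Nisch, Ece1, Icam1, Vcam1, Lox, Mki67, Snap25, Stc1, Ogn, Piezo1, Tiparp and Prl, and the same limit holds for them. The log2 fold changes ran between 0.53 and 2.90 in the higher 10, and between -1.80 and -0.44 in the lower 10.

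**Figure D2:**
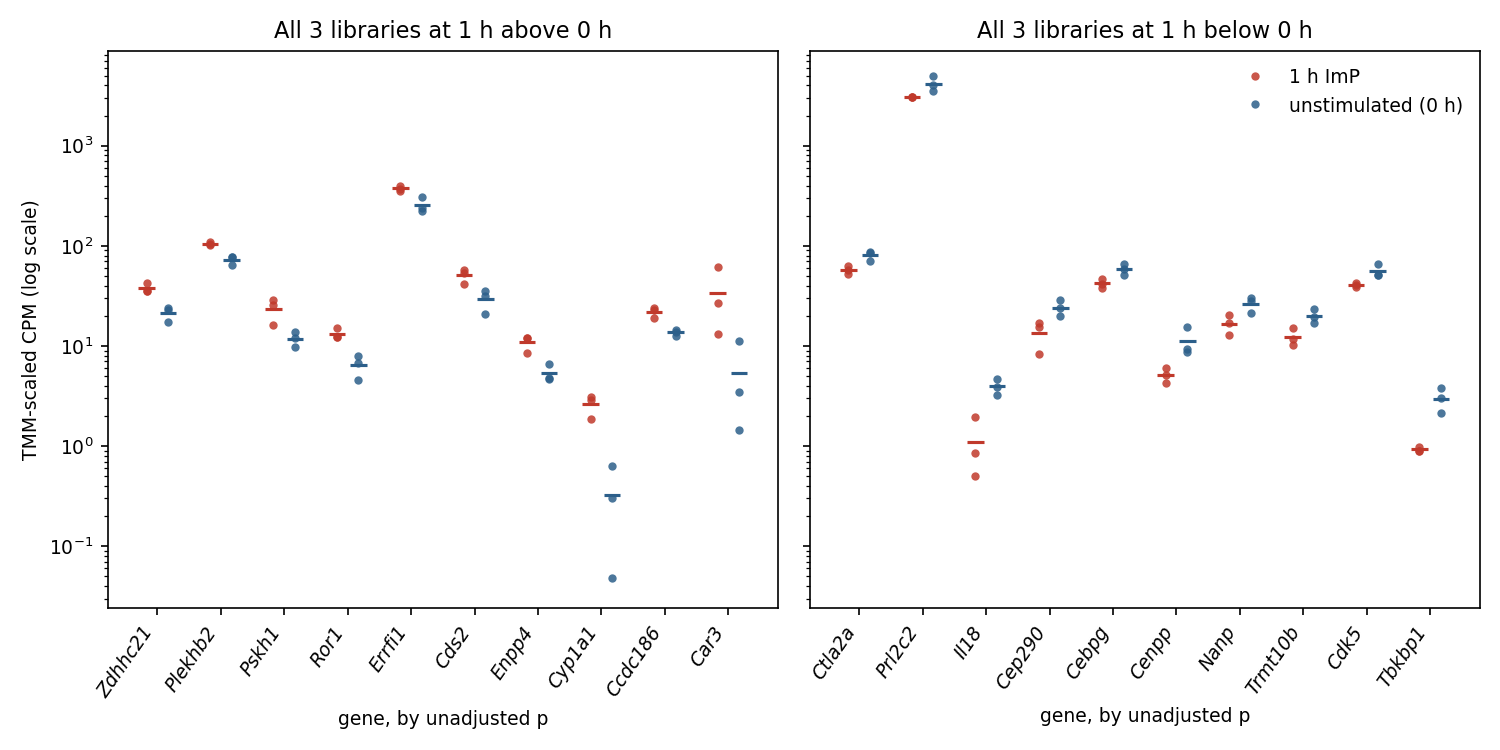
TMM-scaled CPM (log axis) of the 20 genes named by the smallest unadjusted p among genes whose groups did not overlap, in the 3 libraries at 1 h with ImP (red, left of each pair) and the 3 at 0 h (blue). Points are libraries and bars are means, and every gene shows a gap between the groups although each had an adjusted p of 0.826 in edgeR.

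Among the higher genes, Errfi1, an early-induced brake on the EGF receptor, had 372, 398 and 354 CPM at 1 h, against 239, 310 and 223 CPM at 0 h. Its log2 fold change was 0.54 (SE 0.139, 95% interval 0.24 to 0.84). Ror1, a receptor for Wnt ligands, had 12.4, 12.4 and 15.1 CPM at 1 h, against 7.94, 6.69 and 4.58 CPM at 0 h, a log2 fold change of 1.05 (SE 0.248). In both genes the lowest 1 h library stood clear of the highest 0 h library. Plekhb2, a protein of recycling endosomes, had 102, 105 and 109 CPM at 1 h, against 78, 76.8 and 63.7 CPM at 0 h (log2 fold change 0.53, SE 0.12). Cds2, which makes the precursor of phosphatidylinositol, had 53.9, 41.2 and 56.8 CPM at 1 h, against 35.5, 31.9 and 21.1 CPM at 0 h (log2 fold change 0.78, SE 0.2). The third library was the lowest of the 0 h group in 7 of the 10 higher genes, Errfi1, Ror1, Plekhb2, Cds2 and Zdhhc21 among them, and the highest of it in 6 of the 10 lower genes. Pskh1, a protein kinase, Enpp4, an enzyme that cleaves extracellular nucleotides, and Ccdc186, which acts in secretory vesicle formation, had log2 fold changes of 0.99, 1.01 and 0.69.

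The remaining higher genes were the least even among libraries. Cyp1a1, an oxidase of foreign compounds and the classic target of the aryl hydrocarbon receptor, had 179, 58 and 48 counts at 1 h, against 33, 1 and 8 counts at 0 h. This was 2.88, 3.06 and 1.87 CPM at 1 h, against 0.632, 0.0478 and 0.305 CPM at 0 h, a log2 fold change of 2.90 (SE 0.741, 95% interval 1.30 to 4.50). Car3, a carbonic anhydrase abundant in fat and muscle, had 61.8, 13.3 and 26.6 CPM at 1 h, against 1.44, 3.44 and 11.1 CPM at 0 h. Its lowest 1 h library and its highest 0 h library were close. None of 8 adipocyte markers was at 0 in all libraries, and their summed level was 214 to 249 CPM at 1 h and 179 to 260 CPM at 0 h. Adipoq, a defining adipocyte marker, had 18.9, 7.54 and 9.62 CPM at 1 h, against 4.84, 7.45 and 15.1 CPM at 0 h. The part of adipocytes in the Car3 values was not tested.

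Among the lower genes, Il18, a cytokine of the interleukin-1 family, had 1.96, 0.844 and 0.507 CPM at 1 h, against 3.25, 4.68 and 3.93 CPM at 0 h, a log2 fold change of -1.80 (SE 0.526). Tbkbp1, an adaptor of the interferon-inducing kinase TBK1, had 0.982, 0.897 and 0.896 CPM at 1 h, against 2.99, 3.77 and 2.14 CPM at 0 h, a log2 fold change of -1.67 (SE 0.524). Both genes were weakly expressed, and every 0 h library lay above every 1 h library. Ctla2a, an inhibitor of cathepsins, had 51.8, 62.2 and 57.3 CPM at 1 h, against 87.7, 84 and 70.5 CPM at 0 h (log2 fold change -0.50). Cebpg, a partner of C/EBP and ATF4 transcription factors, had 41.5, 47.1 and 38.1 CPM at 1 h, against 51.2, 58.8 and 66.6 CPM at 0 h (log2 fold change -0.48). Prl2c2, a proliferin of the prolactin family, had 3040, 3100 and 3040 CPM at 1 h, against 4040, 3490 and 4960 CPM at 0 h (log2 fold change -0.44, or -0.30 without the third 0 h library). The proliferins are near-identical copies among which reads may be split, so its values are uncertain. Cep290 of the cilium base, Cenpp, Nanp of sialic acid synthesis, the tRNA methyltransferase gene Trmt10b and the kinase gene Cdk5 had log2 fold changes between -1.11 and -0.45.

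Immediate early genes were mostly above 0. None of the 43 tested passed, and 35 had a log2 fold change above 0, with a median of 0.22 beside 0.00 for all 14779 genes, 50.6% of which were above 0. Egr1, a zinc finger factor induced within minutes by growth factors, had 84.1, 67.9 and 82.5 CPM at 1 h, against 55.1, 62.7 and 42.2 CPM at 0 h. The groups did not overlap, and the log2 fold change was 0.55 (SE 0.157, 95% interval 0.21 to 0.89, adjusted p = 0.826 in edgeR). Junb, an AP-1 subunit, had 105, 83.1 and 104 CPM at 1 h, against 77.6, 64.9 and 91.8 CPM at 0 h, and the groups overlapped. Klf4, which also restrains endothelial inflammation, had 92.5, 104 and 107 CPM at 1 h, against 99.8, 126 and 161 CPM at 0 h (log2 fold change -0.35, or -0.16 without the third 0 h library). Fos had 8.74, 11.7 and 8.42 CPM at 1 h, against 8.88, 9.46 and 10.3 CPM at 0 h (log2 fold change 0.01, 95% interval -0.50 to 0.51). Of the 43, 6 lay wholly higher at 1 h, where 5.36% of all genes did, and 2 wholly lower, Gadd45b and Gadd45g, where 4.89% did. Beside Egr1 the higher ones were Jun, Nr4a1, Nr4a2, Btg2 and Dusp5, with log2 fold changes of 0.29, 0.36, 0.33, 0.27 and 0.39. Without the third 0 h library Egr1 was at 0.41, Jun at 0.11, Nr4a2 at 0.22 and Dusp5 at 0.12, while Nr4a1 was at 0.46 and Btg2 at 0.33. The median of the list was then 0.12, with 32 of 43 above 0, and it was 0.16 without the first 1 h library.

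Genes of NF-kB and inflammation gave no call. Of 37 tested none passed, 26 had a log2 fold change above 0, and the median was 0.15. At an unadjusted p under 0.05 there were 4 higher and 0 lower, beside 3.19% and 1.77% of all genes. Of the 37, 4 lay wholly higher at 1 h and 1 wholly lower, beside 5.36% and 4.89% of all genes. The lowest log2 fold change in the list was -2.74, for Cd40. The chemokine gene Cxcl5 had 1.27, 1.69 and 6.9 CPM at 1 h, against 0.823, 0.478 and 0.381 CPM at 0 h, with the third 1 h library far above the rest. Its log2 fold change was 2.52, or 1.38 without that library. Relb, an NF-kB subunit, had 7.25, 4.9 and 4.79 CPM at 1 h, against 4.67, 3.39 and 1.94 CPM at 0 h (log2 fold change 0.76, or 0.49 without the third 0 h library). Tnfaip3, an enzyme that shuts NF-kB signalling down, had a log2 fold change of 0.63 (95% interval 0.05 to 1.20), with overlapping groups. Csf1, the growth factor of macrophages, had 0.37 (0.02 to 0.71). Without the third 0 h library Tnfaip3 was at 0.46 and Csf1 at 0.20. Without the first 1 h library they were at 0.45 and 0.23. Nfkbia, the inhibitor that NF-kB itself induces, had 66.9, 80 and 85.6 CPM at 1 h, against 69.1, 75.1 and 74 CPM at 0 h. Its log2 fold change was 0.09, with a 95% interval of -0.18 to 0.36. Tnf and Il1b were too low to be tested.

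Genes of endothelial adhesion and activation were centred near 0. None of 22 tested passed, and the median was 0.06. Vcam1, which holds monocytes to the vessel wall, had 1780, 1640 and 1560 CPM at 1 h, against 1710, 1520 and 1900 CPM at 0 h (log2 fold change -0.05, 95% interval -0.27 to 0.18). Icam1, a partner of leukocyte integrins, had 117, 136 and 172 CPM at 1 h, against 124, 120 and 134 CPM at 0 h (log2 fold change 0.17, 95% interval -0.14 to 0.48). In both the groups overlapped. Ece1, which processes endothelin, had 150, 136 and 175 CPM at 1 h, against 117, 142 and 77.2 CPM at 0 h (log2 fold change 0.45, or 0.25 without the third 0 h library, the lowest). Of 25 interferon response genes none passed at either the adjusted or the unadjusted threshold, the median log2 fold change was -0.17, and it was -0.06 without the third 0 h library.

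The proposed signalling route of ImP showed no called transcript. Of 28 genes for Nisch, p38 kinases, monoamine oxidases and the mTOR pathway none passed, 18 were above 0 and the median log2 fold change was 0.11, or 0.03 without the third 0 h library. Nisch had 116, 106 and 119 CPM at 1 h, against 108, 90.9 and 92.3 CPM at 0 h (log2 fold change 0.23, 95% interval -0.02 to 0.48). Mtor, the kinase itself, had 12.7, 15.3 and 14.2 CPM at 1 h, against 11.2, 10.7 and 7.59 CPM at 0 h (log2 fold change 0.52, 95% interval 0.04 to 1.00, or 0.37 without the third 0 h library). Mtor was the 1 gene of 28 whose groups did not overlap, a smaller share than the 10.2% of all genes. Mapk12 had a log2 fold change of -0.22 (95% interval -1.17 to 0.72) and Sqstm1 0.12 (-0.15 to 0.40). These are transcript levels, and the kinases' activity was not measured.

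Matrix genes were above 0 in most members with all libraries, though not without the first 1 h library. None of 38 passed, 29 were above 0, and the median log2 fold change was 0.10, with 24 of 38 above 0 without the third 0 h library. Without the first 1 h library 19 of 38 were above 0 and the median was 0.00. Col8a1, a short-chain collagen of the vessel wall, had 241, 212 and 235 CPM at 1 h, against 168, 171 and 174 CPM at 0 h (log2 fold change 0.42, 95% interval 0.15 to 0.70). Of the 38, Col8a1 alone had 1 h libraries wholly above 0 h and Sparc alone wholly below, smaller shares than the 5.36% and 4.89% of all genes. Lox and Loxl1, which crosslink collagen and elastin, had log2 fold changes of 0.49 and 0.53, with overlapping groups, and of 0.19 and 0.29 without the third 0 h library. Lox had 1750, 1340 and 1260 CPM at 1 h, against 1350, 1180 and 568 CPM at 0 h, where the third 0 h library was far below the other 5. Cry1, a repressor of the circadian clock, had 11.6, 8.76 and 12.4 CPM at 1 h, against 8.81, 3.34 and 5.22 CPM at 0 h (log2 fold change 0.90). It was 1 of 18 clock and glucocorticoid genes with an unadjusted p under 0.05, a share near the 4.96% of all genes. That list had 15 of 18 above 0 and a median of 0.20, or 0.12 without the third 0 h library. Mki67, a marker of dividing cells, had 36.4, 31.1 and 36.2 CPM at 1 h, against 45.4, 52 and 43.3 CPM at 0 h (log2 fold change -0.44). The median of the 32 mitosis and replication genes was -0.08, or -0.02 without the third 0 h library, and none passed. Of the 32, Mki67 alone lay wholly lower at 1 h, where 4.89% of all genes did. Bub1 and Mcm3, 2 of the 32, lay wholly higher (log2 fold changes 0.24 and 0.17), where 5.36% of all genes did.

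The ribosomal protein genes lay below 0 together, by an amount that shrank when 1 library was left out. All 79 had a log2 fold change below 0, none passed, and the median was -0.28, between -0.09 for Rps2 and -0.48 for Rps29. Summed over the 79, the level was 30120, 40670 and 39652 CPM at 1 h, against 38974, 39657 and 54699 CPM at 0 h. The third 0 h library lay above and the first 1 h library below the other 4, which held 38974 to 40670 CPM. Leaving out the third 0 h library gave a median of -0.09, with 4 of 79 above 0. Leaving out the first 1 h library gave -0.16. The same 2 libraries stood at the ends of the trend with gene length, and with each library's length trend removed the median was -0.21. The 15 genes of the mitochondrial genome had a median of -0.19, and -0.01 without the third 0 h library. Their summed level was 9129, 12181 and 12188 CPM at 1 h, against 10660, 11722 and 16129 CPM at 0 h. The 20 cholesterol synthesis genes had a median of -0.11, which was -0.29 when the first 1 h library was left out and -0.15 when the third 0 h library was. For the 35 nuclear genes of the respiratory chain and ATP synthase the medians were -0.17 with all libraries and -0.05 without the third 0 h library.

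**Figure D3:**
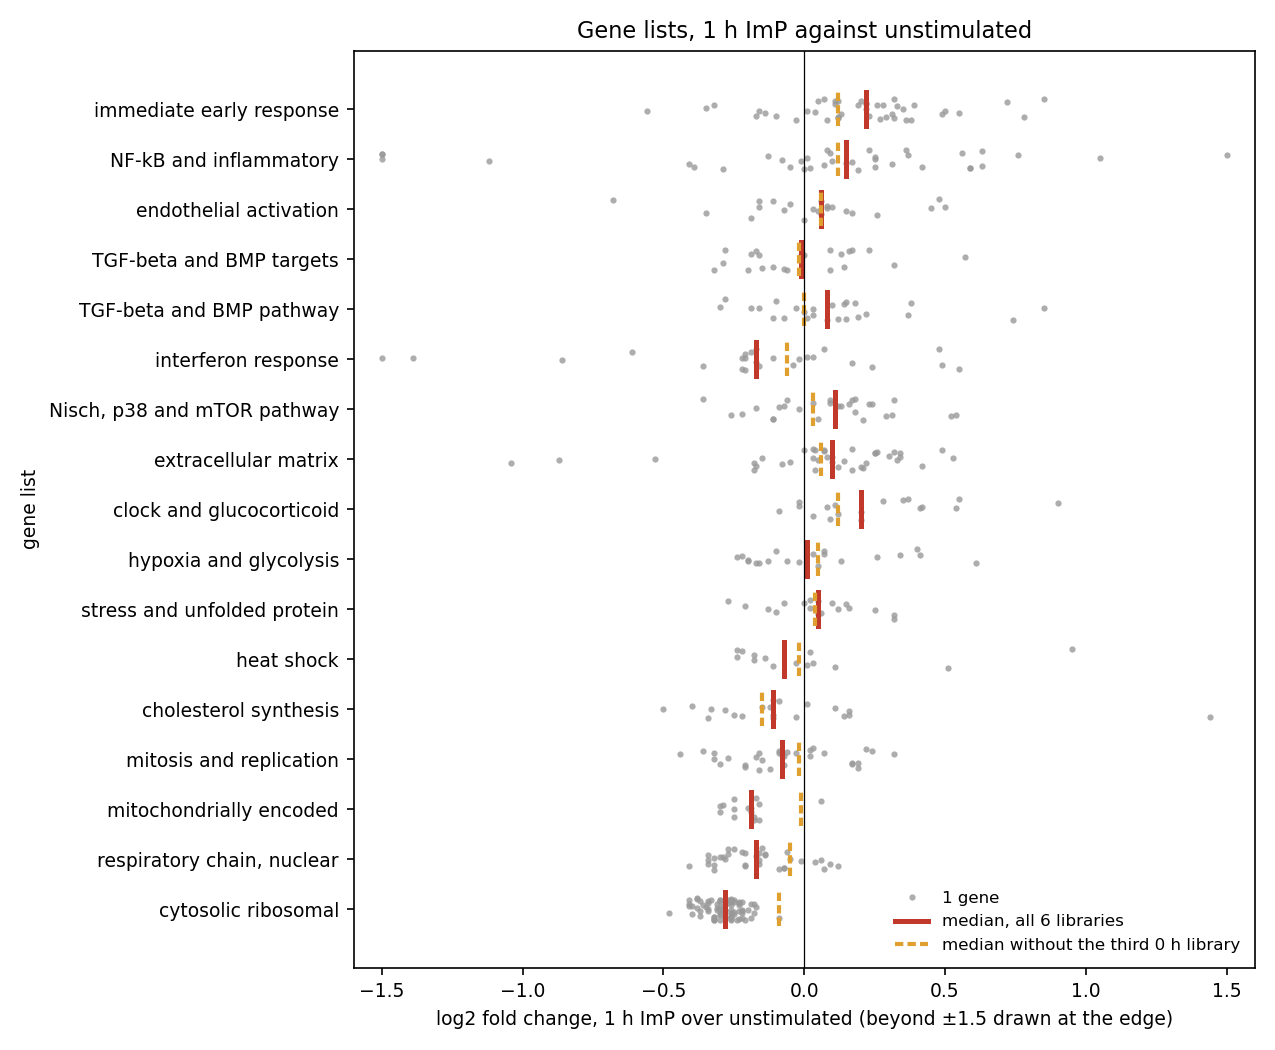
Log2 fold change of each tested gene, 1 h with ImP over 0 h, by gene list. Grey points are genes, red bars the list medians with all 6 libraries and dashed orange bars the medians without the third 0 h library, and 5 genes beyond the axis are drawn at its edge. For ribosomal protein genes these bars lie at -0.28 and -0.09.

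TGF-beta and BMP target genes were followed because Id2, 1 of them, rose in macrophages of the same series (log2 fold change 0.97, edgeR adjusted p = 2.55e-06). SMAD factors, which relay these ligands, switch on Id genes, whose products block differentiation factors, and inhibitory SMADs, which close the loop. In MAECs none of 23 targets passed, 9 were above 0, and the median log2 fold change was -0.01. Id2 had 170, 146 and 149 CPM at 1 h, against 203, 171 and 194 CPM at 0 h (log2 fold change -0.29, 95% interval -0.53 to -0.04). Id3 had 627, 706 and 730 CPM at 1 h, against 737, 775 and 991 CPM at 0 h (log2 fold change -0.28, 95% interval -0.55 to -0.01, or -0.14 without the third 0 h library). In both genes every 1 h library lay below every 0 h library. This held for 4 of the 23 targets, where 4.89% of all genes lay wholly lower. Wholly higher were 0 of the 23, where 5.36% of all genes were. Id1 had a log2 fold change of -0.17 (95% interval -0.44 to 0.10), Smad6 -0.20 (-0.76 to 0.36), Smad7 0.17 (-0.27 to 0.61) and the SMAD corepressor gene Skil -0.01 (-0.35 to 0.33). Of 25 ligand, receptor and SMAD genes of the pathway none passed. Bmper, an extracellular modulator of BMP, had 21.2, 15 and 26.5 CPM at 1 h, against 15.4, 12 and 10.1 CPM at 0 h (log2 fold change 0.74, 95% interval 0.21 to 1.27).

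Whether the 1 h change differed from that of macrophages was tested as an interaction in 18 libraries, a comparison added with the macrophage results known. It called 3 of 16265 genes (0.0184%), all with a lower change in MAECs. At an unadjusted p under 0.05 the change was higher in MAECs for 454 genes (2.79%) and lower for 426 (2.62%), 5.41% in all. Id3 had a log2 fold change of -0.28 in MAECs and 2.73 in macrophages, a difference of -3.02 (SE 0.282, edgeR adjusted p = 6.24e-05). The macrophage change of Id3 alone had an adjusted p of 0.149 in edgeR. In macrophages Id3 had 64.5, 61.7 and 36.6 CPM at 1 h, against 8.94, 8.33 and 7.21 CPM at 0 h. Id2 had a log2 fold change of -0.29 in MAECs and 0.97 in macrophages, a difference of -1.27 (SE 0.135, edgeR adjusted p = 0.000192). In macrophages Id2 had 170, 185 and 181 CPM at 1 h, against 92.9, 90.6 and 90.5 CPM at 0 h. So both genes stood higher in every 1 h than in every 0 h library of macrophages and lower in those of MAECs. Tbkbp1 had a log2 fold change of -1.67 in MAECs and 0.19 in macrophages, a difference of -1.86 (SE 0.279, edgeR adjusted p = 0.0151). The fit shares each gene's spread across both cell types. For Id3, macrophages fitted alone gave an SE of 0.298, larger than the 0.282 of the difference. For Tbkbp1, MAECs fitted alone gave an SE of 0.524, also larger than that of the difference. In limma-voom with quality weights by cell type its adjusted p was 0.987, so this call is uncertain. Id2 and Id3 passed in all 9 alternatives and Tbkbp1 in 6 of 9. Single libraries were left out of MAECs only, while most of the Id2 and Id3 difference lay in macrophages. Passing in these alternatives therefore says little about single macrophage libraries. The third macrophage library at 1 h stood near the 0 h libraries for inflammatory genes (Tnf 227, 220 and 18.3 CPM at 1 h, against 15.2, 14 and 15.2 CPM at 0 h). In an unplanned fit without the third 1 h and 2 h macrophage libraries 34 of 16829 genes were called. Of these, 33 were lower in MAECs, and all 3 named above were among them. Leaving out a library that lacks the inflammatory rise favours calls of such genes, so these calls are not separate support. Among the 34 were Nfkbia (difference -2.46), Egr1 (-1.66), Errfi1 (-1.57) and Smad6 (-2.57). The number called was 13 without the first 0 h library of MAECs, 15 without the first 1 h library and 5 without the second 1 h library. Cell number per well, extraction and library kit differed between MAECs and macrophages, so none of these can be separated from cell type in the difference.

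Because Id2 and Id3 were the genes whose difference passed in all 9 alternatives, the 250 bases before their RefSeq start (GRCm38.p6) are shown, with 2 motifs that SMAD factors are known to bind in capitals: the GC-rich BMP element GGCGCC and the SMAD box AGAC or its reverse complement GTCT, searched on both strands. The Id2 window is chr12:25096093-25096342 on the minus strand and the Id3 window chr4:136143572-136143821 on the plus strand.
Id2: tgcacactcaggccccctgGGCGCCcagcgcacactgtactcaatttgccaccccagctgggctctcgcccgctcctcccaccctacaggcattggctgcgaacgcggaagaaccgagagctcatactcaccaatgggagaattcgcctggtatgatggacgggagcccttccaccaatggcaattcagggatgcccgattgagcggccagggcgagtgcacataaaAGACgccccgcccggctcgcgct
Id3: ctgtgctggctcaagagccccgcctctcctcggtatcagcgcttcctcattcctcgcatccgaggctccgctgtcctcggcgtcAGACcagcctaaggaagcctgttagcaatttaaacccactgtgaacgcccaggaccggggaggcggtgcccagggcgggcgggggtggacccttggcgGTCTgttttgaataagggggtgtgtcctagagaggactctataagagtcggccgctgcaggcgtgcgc
The Id2 window held 1 GGCGCC, 231 bases before the start, and 1 AGAC, 23 bases before it. The Id3 window held no GGCGCC, 1 AGAC 166 bases before the start and 1 GTCT 68 bases before it. Of 32851 windows of the same length 9.59% held GGCGCC, and 82.9% held AGAC or GTCT. These matches are descriptions of sequence and not sites of binding.

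**Figure D4:**
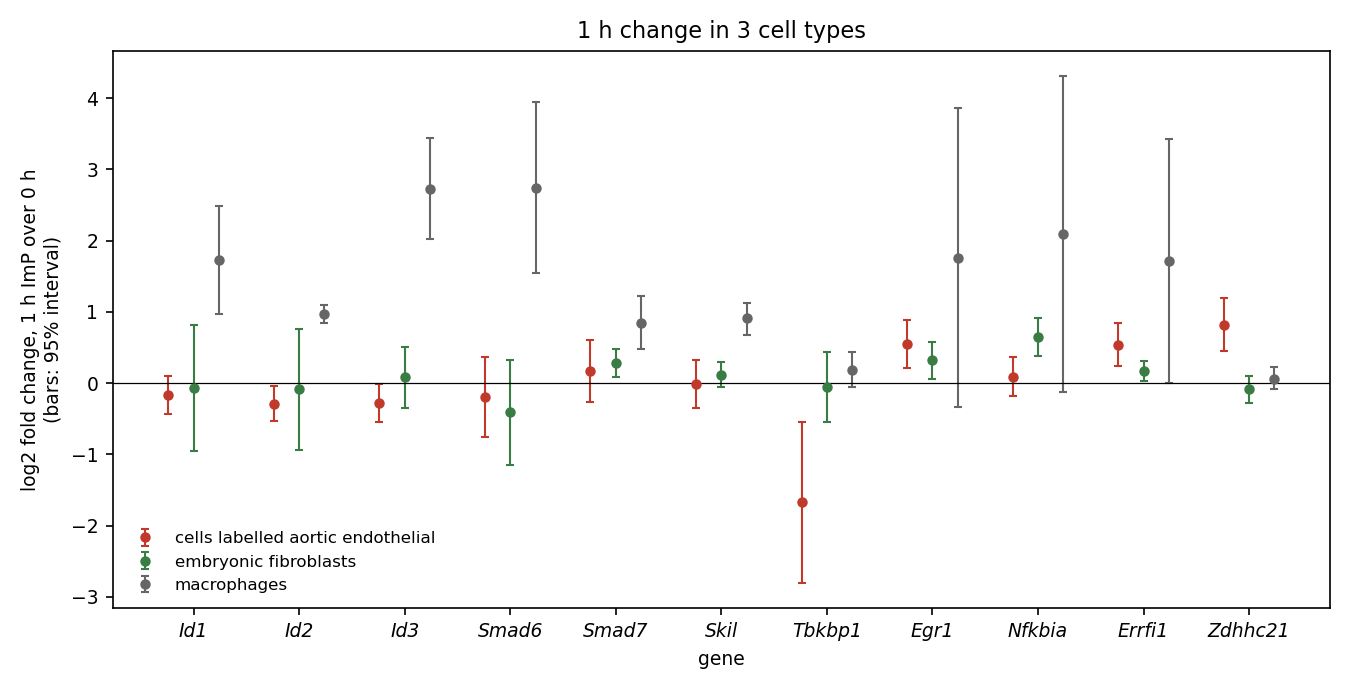
Log2 fold change, 1 h with ImP over 0 h, with 95% intervals, in cells labelled aortic endothelial (red), embryonic fibroblasts (green) and macrophages (grey), each fitted on its own libraries. Id2 and Id3 lie below 0 in the cells labelled aortic endothelial (-0.29 and -0.28) and above it in macrophages (0.97 and 2.73).

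Against embryonic fibroblasts no difference of the 1 h change passed. Cell number per well and library kit differed between MAECs and fibroblasts, so neither can be separated from cell type in these differences. In the interaction of 18 libraries edgeR called 0 of 16334 genes (0%), with 767 (4.7%) higher and 603 (3.69%) lower at an unadjusted p under 0.05, 8.39% in all. Limma-voom with quality weights also called 0, with 1331 genes under that unadjusted p. Leaving out the first 0 h library of MAECs gave 11 calls, leaving out the third 0 h library 3, and leaving out the second 1 h library 1. Zdhhc21 had a log2 fold change of 0.82 in MAECs and -0.09 in fibroblasts, a difference of 0.92 (95% interval 0.53 to 1.32, edgeR adjusted p = 0.531). In fibroblasts Zdhhc21 had 59.1, 51.6 and 51.8 CPM at 1 h, against 61.3, 52.9 and 58.9 CPM at 0 h. Its groups overlapped there. In MAECs they did not, but the rule by which Zdhhc21 was named required that, so the contrast is not a result. Piezo1, a mechanically gated ion channel, had 33, 37.8 and 34.5 CPM at 1 h, against 22.7, 22.2 and 28.3 CPM at 0 h in MAECs, and a difference from fibroblasts of 0.64 (SE 0.152). Nfkbia had a log2 fold change of 0.09 in MAECs and 0.64 in fibroblasts, a difference of -0.54 (95% interval -0.89 to -0.19, edgeR adjusted p = 0.581).

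Set against 2 h of ImP in the same cells, the 1 h libraries showed few steps. EdgeR called 0 of 14779 genes (0%) between 2 h and 1 h, with 149 (1.01%) higher and 144 (0.974%) lower at an unadjusted p under 0.05, 293 (1.98%) in all. Limma-voom also called 0, with 286 genes under that unadjusted p, and DESeq2 called 3. Of the genes that DESeq2 called, Snap25, a membrane fusion protein of secretory vesicles, had 10.2, 12.3 and 10.3 CPM at 2 h, against 5.41, 4.01 and 4.29 CPM at 1 h (log2 fold change 1.25, DESeq2 adjusted p = 0.017). Tcte3 and a predicted gene, the other 2, rested on a group with no or few counts. Angptl4, an inhibitor of lipoprotein lipase, had 172, 162 and 165 CPM at 0 h, 181, 184 and 181 CPM at 1 h, then 253, 324 and 234 CPM at 2 h. Stc1, a secreted glycoprotein, had 7.85, 7.69 and 11.1 CPM at 0 h, 10.7, 11.1 and 13.4 CPM at 1 h, then 23.5, 38.8 and 16.9 CPM at 2 h. In both genes every 2 h library lay above every 1 h library, which the rule for naming genes of this comparison required. Ogn, a small leucine-rich proteoglycan, had 67.3, 90 and 112 CPM at 0 h, 81.5, 99.5 and 103 CPM at 1 h, then 58.7, 44.4 and 51.9 CPM at 2 h. In edgeR the log2 fold changes of 2 h over 1 h were 0.57 for Angptl4, 1.17 for Stc1 and -0.87 for Ogn, each with an adjusted p of 1.0.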

How the data were processed

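Bulk RNA sequencing values were deposited by the authors as 1 table of estimated counts per gene symbol for 27 libraries, per the file headers, and as 9 tables by group that hold the same values. The submitters' processing notes name STAR and RSEM, as well as FastQC, cutadapt, DESeq2 and R 4.3.2, and the build GRCm38, but no order of use. Strand of counting and settings are not given in the sources used here. All deposited expected counts were already whole. Of 25192 symbols 98.1% matched GENCODE M21, used for position, overlap and exon length. Per the labels' protocols MAECs libraries came from a low-input kit and the others from a directional kit.

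The 9 MAECs libraries were fitted together in edgeR 4.0.16 (R 4.3.3): filterByExpr at a minimum count of 10, TMM, robust quasi-likelihood F-test, two-sided, Benjamini-Hochberg adjustment, threshold 0.05. Sharing of the 1 h change with other cells was tested as interactions in 18 libraries. Standard errors are Wald errors on the quasi-likelihood weights. Levels are TMM-scaled CPM. Alternatives used DESeq2 1.42.0, limma 3.58.1, RLE or no scaling, other filters, the 2 groups alone, library-code runs as a block and leave-one-out. The edgeR test of 1 h against 0 h was also run on simulated counts. These lacked the departure of the third 0 h library and the trends with gene length, so that run does not cover them.

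Named were up to 10 genes a direction without group overlap and with a mean of at least 1 CPM, by smallest p where none was called, 5 a direction for other comparisons, up to 4 a list by p, and 20 fixed genes; predicted genes were not named. Tnf, Tcte3, Serpina3c, Steap4, members given by fold change alone and the genes under other observations were chosen after their values were seen. The members, gene lists and tests were chosen with earlier results of these data known. Replicates differed beyond sampling noise (chi-squared per degree of freedom of at least 19.2). The floor of 3 counts covers counting error only.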

Additional observations from a re-analysis of the deposited data

Results flagged for a closer look

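The 1 h change of 3 genes differed between cells labelled aortic endothelial and macrophages in the interaction test of edgeR. The difference in log2 fold change was -1.27 for Id2, -3.02 for Id3 and -1.86 for Tbkbp1. The call of Tbkbp1 is uncertain, since limma-voom with quality weights by cell type gave it an adjusted p of 0.987. For Id2 and Id3 all 3 libraries at 1 h lay below all 3 at 0 h in the cells labelled aortic endothelial and above them in macrophages. The difference in Tbkbp1 lay in the cells labelled aortic endothelial, where it averaged 0.925 ± 0.049 CPM at 1 h and 2.97 ± 0.82 CPM at 0 h (SD, n = 3 each). Groups of 3 were not tested for single libraries that stand apart.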

How the results depend on the processing

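For 1 h against 0 h, 0 genes were called by edgeR under RLE scaling, library totals alone, both filters, the fit of the 2 groups alone, the fold threshold, a block and removal of the length trend, and 0 by limma-voom with and without quality weights. DESeq2 called 3, and leaving out each library in turn gave 0 to 1. The 1 gene, called when the third 0 h library was left out, and again when the third library of both groups was (1), was the metalloreductase gene Steap4, with counts of 132, 60 and 39 at 1 h, against 0, 0 and 110 at 0 h. Unadjusted p under 0.05 was met by 733 genes in the main test, by 437 in the fit of the 2 groups alone, 502 with quality weights, 1303 with no filter, 1112 in DESeq2, 1127 with a block, 122 among genes that moved by 1 or more on the log2 scale, and 575 to 1511 when single libraries were left out. For 2 h against 1 h, DESeq2 called 3, the test with no filter 1 (Ogn) and the other alternatives 0. For the difference from fibroblasts, leave-one-out gave 0 to 11 calls and the other alternatives 0. For the difference from macrophages, leave-one-out gave 2 to 15, limma-voom 2, the block 2 and the fit without the third macrophage libraries 34. Tbkbp1 was not past the threshold in 3 of 9 alternatives: quality weights (adjusted p = 0.987), the block (0.0613) and without the third 1 h library (0.0535). Of 119 genes named for 1 h against 0 h, 12 changed sign under some alternative, and none of these was among the 53 whose 95% interval excluded 0. Library codes run in sequence across times, except that in the third macrophage run the 2 h code comes before the 1 h code. Among the 9 MAECs libraries, deviations within a run correlated at -0.033 to 0.13, and 5 of 9 libraries were closest to their own run. These values cannot tell whether the runs were paired, and the labels name no pairing. The block of runs was therefore used as an alternative only. With it the calls were 0, 0, 0 and 2 for the 4 comparisons, and unadjusted p under 0.05 was met by 412 genes for 2 h against 1 h, against 293 without it. Leaving out single libraries moved that unadjusted count between 162 and 782 for 2 h against 1 h, 1049 and 2265 for fibroblasts and 881 and 1586 for macrophages. Library totals alone shifted the median log2 fold change of all genes to 0.05. Depth limits most the 2103 genes under 1 CPM.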

Other observations

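Cyp1a1 was followed by a look at other genes known as targets of the aryl hydrocarbon receptor, chosen after their values were seen. None passed in edgeR. Cyp1b1, an oxidase, had 487, 356 and 416 CPM at 1 h, against 372, 361 and 273 CPM at 0 h, with overlapping groups and a log2 fold change of 0.32 (SE 0.153). Tiparp, which restrains the receptor, had 82.1, 101 and 87.9 CPM at 1 h, against 72.7, 84.4 and 59.1 CPM at 0 h (log2 fold change 0.32). Ahrr, the receptor's repressor, had 3.3, 0.949 and 0.896 CPM at 1 h, against 4.48, 4.11 and 1.26 CPM at 0 h (log2 fold change -0.90). Nqo1, a quinone reductase, had 341, 378 and 355 CPM at 1 h, against 399, 399 and 492 CPM at 0 h (log2 fold change -0.26), and Aldh3a1 a log2 fold change of -0.64. So Cyp1b1 and Tiparp lay on the side of Cyp1a1 and the other 3 on the opposite side. At 2 h Cyp1a1 had 1.46, 3.27 and 1.36 CPM.

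Prolactin family genes and osteopontin were abundant in these cells. Prl, prolactin itself, had 44.1, 40 and 47 CPM at 1 h, against 50, 60.1 and 68 CPM at 0 h, with no overlap (log2 fold change -0.44, SE 0.142). The proliferin gene Prl2c3 had 1440, 1580 and 1730 CPM at 1 h, against 1850, 1720 and 2800 CPM at 0 h, and shares sequence with Prl2c2. Spp1, which encodes the secreted matrix protein osteopontin, had 26000, 27400 and 25300 CPM at 1 h, against 30500, 26600 and 34400 CPM at 0 h (log2 fold change -0.22), with the third 0 h library the highest.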
